A study of Homo sapiens with 9 samples.

Results

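The cell-surface heparan sulfate proteoglycans and their adaptor were followed in HCT116, a human cell line derived from a colon carcinoma. The 10 genes, of 58395 in the gene tables, were the syndecans SDC1, SDC2, SDC3 and SDC4, the glypicans GPC1, GPC2, GPC4 and GPC6, the secreted proteoglycan AGRN and the syndecan adaptor SDCBP. They were listed by family and chosen by results of these same libraries (read counts and TPM, transcripts per M, where M is mega, over the 3 groups), so their values are given as a description and carry no p-values. The study asked how STBD1, a glycogen-binding protein examined as a receptor for the autophagic breakdown of glycogen, affects cancer cells. All 9 RNA-seq libraries, 3 replicates in each of 3 stable lines, came from cells with the hairpin shSTBD1, the control line included. The plvx neo line carried the vector alone, the STBD1 WT line re-expressed STBD1, and the STBD1 W203C line expressed STBD1 with the tryptophan-to-cysteine change in its name. The constructs were delivered by lentivirus and selected with drug, so each group was 1 stable line. The methods of the study call the replicates biological without saying how they were separated, and the spread given is that between libraries of 1 line.

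The sample titles and the names of the deposited tables give STBD1 WT and STBD1 W203C the other way round. The titles were followed here. If the table names were the right ones, each statement about STBD1 WT below would hold for STBD1 W203C, and the reverse. With the titles followed, STBD1 W203C was the construct line nearer to plvx neo, with 859 genes passing the test against 4254 for STBD1 WT, which does not by itself settle the names. STBD1 itself measured 3.27 ± 0.547 TPM in plvx neo, 10.8 ± 0.0693 in STBD1 WT, with 9.15 ± 1.04 in STBD1 W203C (SD, n = 3). The readthrough gene FAM47E-STBD1, which overlaps STBD1 on the same strand, was listed at 1.58 ± 0.747, 43.7 ± 2.32 and 36.9 ± 1.92 TPM in the same order, so most of the rise in TPM was listed under that gene. This separates the vector line from both constructs but does not tell the constructs apart. Total expected counts, the read numbers that the RSEM program assigns to genes, ran from 16.9 to 23.3 M per library. The chi-square per gene between replicates was 2.12 to 3.87, where sampling noise alone would give about 1. The 6 epithelial markers checked (EPCAM, CDH1, KRT8, KRT18, KRT19 and CLDN4) were present in every library and summed to 3332 to 4029 TPM, highest in plvx neo (3923 to 4029), then STBD1 WT (3613 to 3732) and STBD1 W203C (3332 to 3595). Leukocyte markers summed to 2.58 to 2.62 TPM in plvx neo, 4.38 to 7.48 in STBD1 WT, against 2.32 to 2.81 in STBD1 W203C, with CD68 up to 6.47 TPM and PTPRC and CD3E at 0 in 8 libraries each. Fibroblast markers summed to 12.8 to 22.0 TPM, of which COL1A1 alone gave 12.6 to 21.6 while LUM was at 0 in all 9 libraries, and endothelial markers to 0.10 to 0.47 TPM. The part of these marker levels in the results was not tested.

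Syndecans are single-pass membrane proteins, and glypicans are held on the outer membrane leaflet by a lipid anchor. Both carry heparan sulfate, long sulfated sugar chains that bind growth factors, chemokines and matrix proteins and present them to signalling receptors and integrins. SDC1 is the typical syndecan of epithelia, whereas SDC4 is expressed widely, gathers in focal adhesions where it binds fibronectin together with integrins, and activates protein kinase C alpha through its cytoplasmic tail. SDCBP (syntenin) binds the tail of all syndecans through its PDZ domains and carries them through endosomes into exosomes.

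SDC4 stood at its lowest in plvx neo, about doubled in the libraries labelled STBD1 WT and lay between these levels in STBD1 W203C. Its TPM was 45.1, 47.7 and 49.9 in plvx neo, 101, 97.8 and 102 in STBD1 WT, with 68.1, 65.1 and 68.1 in STBD1 W203C (replicates 1 to 3). The 3 groups did not overlap, and the lowest STBD1 WT library lay well above the highest of the other groups. The means were 47.6 ± 2.37, 100.2 ± 2.18 and 67.1 ± 1.74 TPM (SD, n = 3), a difference of 52.6 TPM between STBD1 WT and plvx neo, of which 37.1% was present in STBD1 W203C. On the count scale SDC4 was 2.11-fold higher in STBD1 WT than in plvx neo (log2 fold change 1.08, SE 0.0386), 0.654-fold in STBD1 W203C relative to STBD1 WT (-0.61, SE 0.0386) and 1.38-fold higher in STBD1 W203C than in plvx neo (0.46, SE 0.0425). In these comparisons 1.16%, 5.43% and 5.80% of all genes tested had a change at least as large in either direction. SDC4 rests on 2010 to 5166 reads per library, and leaving out any 1 library moved the first of these log2 values only between 1.06 and 1.10. In these bulk libraries, more SDC4 RNA in every cell and more cells with a high level cannot be told apart. An unnamed transcript unit (ENSG00000275894) that overlaps SDC4 on the same strand held 5 to 20 reads per library.

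**Figure D1:**
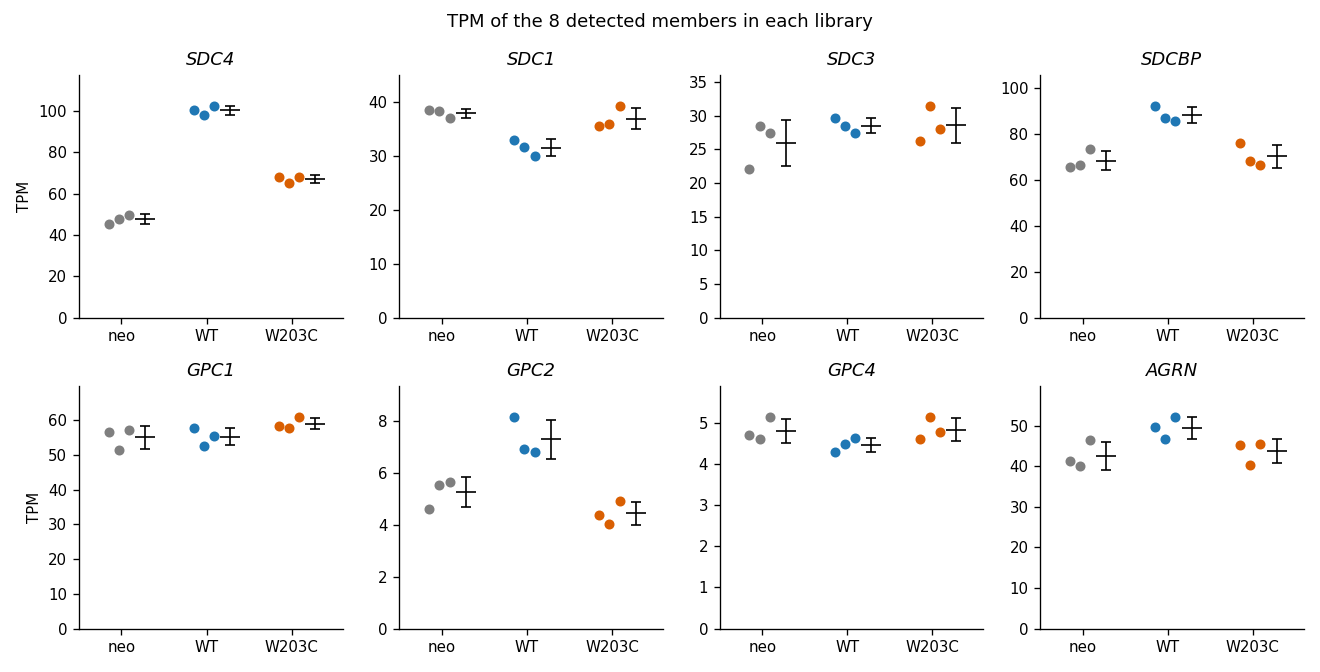
TPM (vertical axes, from 0) of the 8 detected members in each library, 1 panel per gene, with plvx neo, STBD1 WT and STBD1 W203C from left to right; points are libraries and the black marks are the mean ± SD (n = 3). SDC4 forms 3 separate levels (means 47.6, 100.2 and 67.1 TPM), while GPC1 and GPC4 stay at about 1 level.

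SDC4 (ENSG00000124145) lies on the minus strand of chromosome 20 from 45325288 to 45348424 (hg38, GENCODE release 44). The 250 bases immediately before its transcription start are shown because SDC4 was the member with the widest range across the groups. They occupy chr20:45348425-45348674 on the minus strand and were taken from RefSeq (GRCh38.p14). Capitals mark the single match to the NF-kB consensus, which begins 97 bases before the start.
SDC4: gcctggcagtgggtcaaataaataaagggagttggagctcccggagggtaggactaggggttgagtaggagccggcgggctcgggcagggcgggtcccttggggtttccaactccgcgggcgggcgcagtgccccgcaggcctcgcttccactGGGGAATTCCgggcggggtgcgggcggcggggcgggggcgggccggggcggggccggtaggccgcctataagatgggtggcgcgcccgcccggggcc
Of these bases 73.6% are G or C. The NF-kB consensus, searched on both strands like the motifs that follow, matched 9.96% of the 35116 RefSeq promoter windows of the same length. The hexamer GGGCGG, the core of sites for the factor SP1, was found in 42.6% of the windows and 8 times before SDC4, and 1 of these matches starts directly after the NF-kB match without overlapping it. The AP-1 motif, written TGANTCA, was present in 6.57% of all windows but not in that of SDC4. The E-box searched was CACGTG, present in 6.34% of all windows and not before SDC4. The TATA box, searched only as the exact letters TATAAA, was present in 10.7% of all windows and likewise not before SDC4. The bases before SDC4 do hold TATAAG near their end, a form that was not searched. Of the 6 members with a single entry in that table (SDC3, SDC4, GPC1, GPC2, GPC4 and GPC6), SDC4 was the 1 with an NF-kB match, 5 held the SP1 core and GPC6 held the TATA box. These matches describe the letters and carry no measurement of binding.

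The other detected syndecans, SDC1 and SDC3, changed less than SDC4. SDC1 (chromosome 2, 20200797 to 20225433, minus strand) read 38.4, 38.3 and 36.9 TPM in plvx neo, 32.9, 31.7 and 29.9 in STBD1 WT, with 35.5, 35.8 and 39.1 in STBD1 W203C. It was lowest in STBD1 WT, whose libraries lay below all others, while plvx neo and STBD1 W203C overlapped. Its log2 fold change was -0.25 (SE 0.0509) for STBD1 WT vs plvx neo, 0.19 (SE 0.0508) for STBD1 W203C vs STBD1 WT and -0.07 (SE 0.0490) for STBD1 W203C vs plvx neo. SDC1 was thus lower where SDC4 was highest, and the ratio of SDC4 to SDC1 TPM rose from 1.18, 1.25 and 1.35 in the plvx neo libraries to 3.06, 3.09 and 3.42 in STBD1 WT, with 1.92, 1.82 and 1.74 in STBD1 W203C.

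SDC3 (chromosome 1, 30869466 to 30908758, minus strand), a syndecan best known from neural tissue, gave 22.0, 28.4 and 27.4 TPM in plvx neo, 29.7, 28.5 and 27.4 in STBD1 WT, with 26.2 to 31.3 in STBD1 W203C. On this scale the 3 groups overlapped. On the count scale the STBD1 WT libraries lay above the others, with a log2 fold change of 0.19 (SE 0.0433) against plvx neo and -0.17 (SE 0.0441) for STBD1 W203C vs STBD1 WT. The scales differ in that TPM divides by the transcript length that RSEM estimated, which for SDC3 ran from 3642 to 4512 bases in plvx neo, 3873 to 4137 in STBD1 WT, with 3556 to 4024 in STBD1 W203C. A gene is said to pass the threshold where its adjusted p in edgeR, over all genes tested, was below 0.05, or the same in an alternative tool. SDC3 passed it in both of these comparisons. In limma-trend on log2(TPM + 1) the values were 0.14 and -0.0026, neither past the threshold. With offsets that take out the part of each library's levels that follows the GC content and length of the transcripts, they were 0.11 and -0.10, also below it, although the first passed with the same offsets and the replicate number as a block (0.11). SDC3 is therefore a member whose small count difference did not hold on the other scale, and the second also failed without STBD1 WT replicate 2, at -0.14. For SDC4 the estimated length was the same in every library, 2613 bases. SDC1 passed the threshold in the same comparisons as SDC3, but limma-trend on log2(TPM + 1) did not call it in STBD1 W203C vs STBD1 WT.

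SDC2 (chromosome 8, 96493813 to 96611790, plus strand), a syndecan typical of mesenchymal cells, had 0 reads in all 9 libraries. A count of 0 allows up to 3 reads, or 0.129 to 0.178 per M depending on the library, for counting error only. SDC2 could not be compared between the groups.

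With SDC1 and SDC3 changing less, the make-up of the syndecan transcripts shifted with SDC4. SDC4 took 42.8%, 41.7% and 43.7% of the summed syndecan TPM in plvx neo, 61.7%, 61.9% and 64.1% in STBD1 WT, with 52.4%, 49.2% and 50.4% in STBD1 W203C. The share of SDC1 was 34.0% ± 2.10 in plvx neo, 19.7% ± 0.791 in STBD1 WT, with 27.8% ± 0.980 in STBD1 W203C (SD, n = 3). The syndecan sum was 111 ± 5.02, 160.1 ± 2.68 and 132 ± 2.65 TPM in the same order, with no overlap between groups, whereas the summed glypicans stayed at 61.5 to 70.5 TPM over all 9 libraries.

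**Figure D2:**
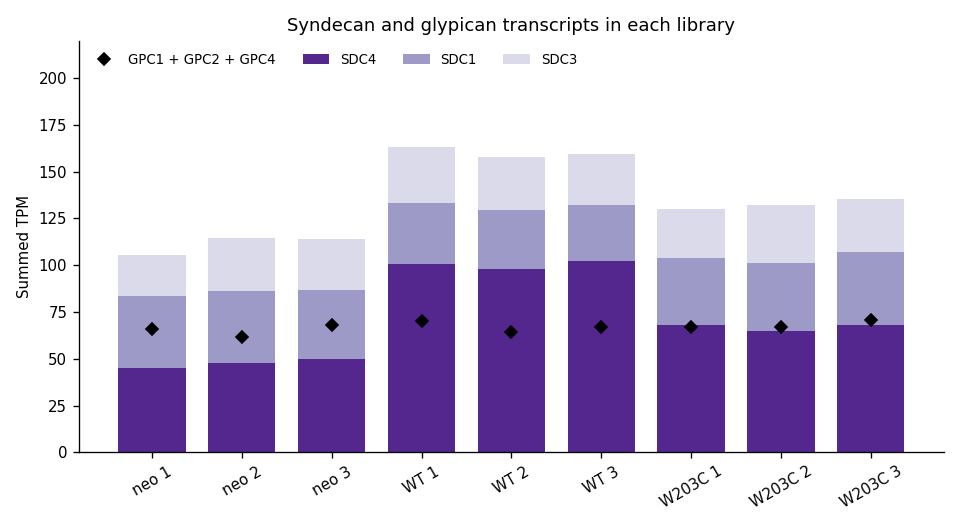
Summed TPM (vertical axis, from 0) of SDC4, SDC1 and SDC3 in each of the 9 libraries (bars, stacked) and of GPC1, GPC2 and GPC4 together (diamonds). The bars reach 106 to 114 TPM in plvx neo, 158 to 163 in STBD1 WT, with 130 to 135 in STBD1 W203C, mostly through the SDC4 segment, and the diamonds stay between 61.5 and 70.5 TPM.

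SDCBP (chromosome 8, 58552924 to 58582859, plus strand) was higher in STBD1 WT than in both other lines. Its TPM was 65.4, 66.2 and 73.2 in plvx neo, 91.8, 86.8 and 85.6 in STBD1 WT, with 75.9, 68.0 and 66.4 in STBD1 W203C. The STBD1 WT libraries lay above all others, and plvx neo and STBD1 W203C overlapped. The log2 fold change was 0.39 (SE 0.0398) for STBD1 WT vs plvx neo, -0.38 (SE 0.0429) for STBD1 W203C vs STBD1 WT and 0.0031 (SE 0.0454) for STBD1 W203C vs plvx neo. Unlike SDC4, SDCBP was thus at the vector level in STBD1 W203C. It was past the threshold in the first pair of comparisons under all 8 alternative settings and without any 1 library. This describes dependence on the setting only, since SDCBP was chosen by results of these same libraries.

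The glypicans differed among themselves. GPC1 (chromosome 2, 240435663 to 240468076, plus strand), the most abundant glypican here and a co-receptor for fibroblast growth factors, read 56.5, 51.3 and 57.3 TPM in plvx neo, 57.7, 52.7 and 55.4 in STBD1 WT, with 58.2, 57.9 and 60.8 in STBD1 W203C. In TPM the plvx neo and STBD1 WT libraries overlapped, and the STBD1 W203C libraries lay just above both. On the count scale GPC1 overlapped between all groups. It differed by -0.02 on the log2 scale (SE 0.0467) for STBD1 WT vs plvx neo, by 0.09 (SE 0.0420) for STBD1 W203C vs STBD1 WT and by 0.06 (SE 0.0463) for STBD1 W203C vs plvx neo, none past the threshold. With GC content and length offsets GPC1 passed it in the first pair of these, at -0.17 and 0.19, and it also passed in STBD1 W203C vs STBD1 WT without STBD1 WT replicate 1, at 0.13. GPC1-AS1, on the opposite strand, held 1 to 10 reads per library.

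GPC2 (chromosome 7, 100169606 to 100177381, minus strand), known from the developing nervous system and neuroblastoma, was present at a low level of 4.61, 5.54 and 5.67 TPM in plvx neo, 8.15, 6.93 and 6.81 in STBD1 WT, with 4.38, 4.05 and 4.92 in STBD1 W203C. STBD1 WT was again above the other lines without overlap. The log2 fold changes were 0.51 (SE 0.126) for STBD1 WT vs plvx neo, -0.57 (SE 0.130) for STBD1 W203C vs STBD1 WT and -0.06 (SE 0.141) for STBD1 W203C vs plvx neo. With 96 to 184 reads per library these had the largest errors among the members, and the first fell below the threshold in limma-trend on log2(TPM + 1), at 0.40.

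GPC4 (chromosome X, 133300103 to 133415489, minus strand), a glypican with roles in Wnt and growth factor signalling, was even across the lines at 4.81 ± 0.287 TPM in plvx neo, 4.47 ± 0.171 in STBD1 WT, with 4.84 ± 0.272 in STBD1 W203C (SD, n = 3), with overlap between all groups. It differed by -0.10 (SE 0.0731), by 0.08 (SE 0.0744) and by -0.03 (SE 0.0770) on the log2 scale in the order of comparisons used for GPC1, none past the threshold under any setting. GPC6 (chromosome 13, 93226807 to 94408020, plus strand) had 0 reads in all 9 libraries, like SDC2, with the same upper limit. Of the remaining glypicans, GPC3 had 5 to 20 reads per library and GPC5 0 to 3, so GPC1 supplied most glypican transcripts in each line.

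AGRN (chromosome 1, 1020120 to 1056118, plus strand), which encodes agrin, a basement membrane proteoglycan that organises the neuromuscular junction, gave 41.2, 40.0 and 46.5 TPM in plvx neo, 49.7, 46.6 and 52.1 in STBD1 WT, with 45.3, 40.4 and 45.6 in STBD1 W203C. The STBD1 WT libraries were highest, but their lowest value only just exceeded the highest of plvx neo. The log2 fold change was 0.31 (SE 0.0410) for STBD1 WT vs plvx neo, -0.28 (SE 0.0372) for STBD1 W203C vs STBD1 WT and 0.02 (SE 0.0422) for STBD1 W203C vs plvx neo. With GC content and length offsets the first pair shrank to 0.14 and -0.17 and stayed past the threshold. In limma-trend on log2(TPM + 1) they were 0.21 and -0.17 and did not pass it. AGRN has the highest GC content of the members, 66.0% over its transcripts, followed by GPC1 (65.4%), GPC2 (62.7%), SDC1 (61.4%) and SDC3 (60.2%), against 48.8% for SDC4, 44.8% for GPC4 and 41.8% for SDCBP. The same offsets left SDC4 at 1.10 and -0.63.

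Of the 8 members with enough reads to be tested, 6 passed the threshold (adjusted p below 0.05 in edgeR over all genes) in STBD1 WT vs plvx neo, where 27.8% of all genes tested passed. SDC4, SDCBP, GPC2, AGRN and SDC3 were higher and SDC1 lower. In STBD1 W203C vs STBD1 WT the same 6 genes passed in the opposite direction, where 27.9% of all genes passed. These comparisons share the STBD1 WT libraries. In STBD1 W203C vs plvx neo SDC4 was the 1 member to pass, where 5.70% of all genes passed. The median log2 fold change of the 8 members was 0.25, -0.23 and 0.0092 in these comparisons, against 0.0061, -0.0078 and -0.0031 for all genes tested. Since the members were chosen by these values, nothing is read from the counts.

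**Figure D3:**
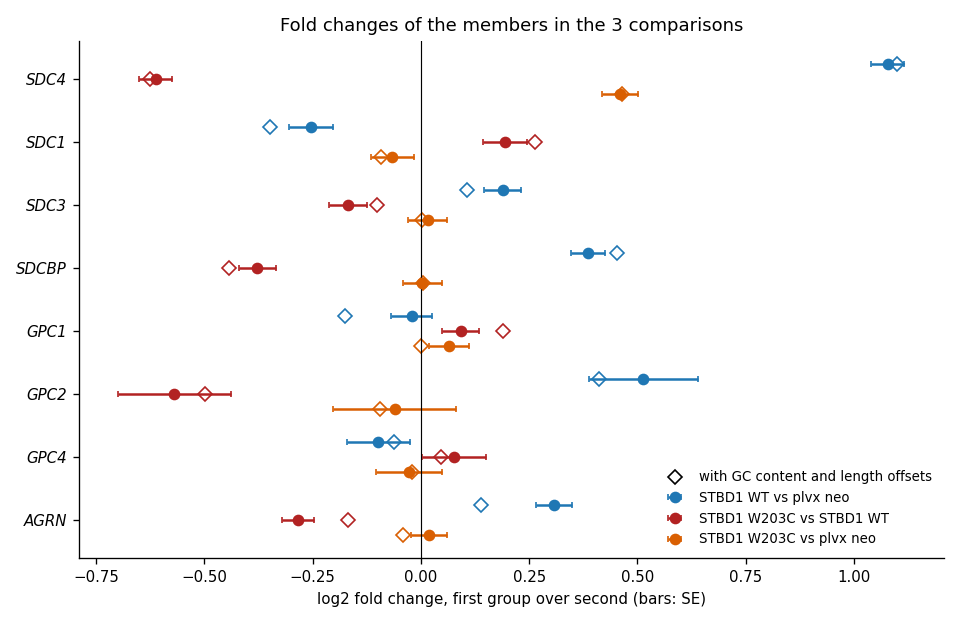
Log2 fold change ± SE (horizontal axis) of the 8 tested members in the 3 comparisons (filled circles, by colour, 3 against 3 libraries each) and the same value with GC content and length offsets (open diamonds). SDC4 is away from 0 in all 3 comparisons (1.08, -0.61 and 0.46), SDCBP, GPC2, AGRN, SDC3 and SDC1 in the first pair, and the diamonds lie farthest from their circles for AGRN and GPC1.

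The order of the mean TPM changed mainly through SDC4. In plvx neo it ran SDCBP, GPC1, SDC4, AGRN, SDC1, SDC3, GPC2 and GPC4, and the neighbours SDC4 and AGRN, and GPC2 and GPC4, overlapped in their libraries. In STBD1 WT SDC4 came first, followed by SDCBP, GPC1, AGRN, SDC1, SDC3, GPC2 and GPC4, with no overlap between neighbours. In STBD1 W203C SDCBP and SDC4 led and overlapped each other, and GPC4 and GPC2, last in the order, overlapped too.

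Among 11317 genes tested in all 3 comparisons with a mean of at least 5 CPM (counts scaled to 1 M per library), those most like SDC4 were ranked by Pearson's r of log2 CPM over the 9 libraries. The 5 most like it were CDKN1A (p21, a cell cycle inhibitor, r = 0.996), CLDN4 (a tight junction claudin, 0.993), PLAU (urokinase, 0.991), TNFAIP2 (a TNF-induced gene, 0.990) and B2M (the light chain of HLA class I, 0.990). CDKN1A, for example, had means of 159, 278 and 215 TPM in the lines plvx neo, STBD1 WT and STBD1 W203C, and PLAU 18.0, 31.3 and 22.9, the same order of groups as SDC4. The 3 least like it were AMOTL2 (-0.988; 14.6, 7.84 and 11.2 TPM), a scaffold protein of cell junctions, HELLS (-0.983), a chromatin remodeller, and GARS1 (-0.983), the glycyl-tRNA synthetase. These points share the 3 lines, so r mostly reflects the 3 group levels and describes these libraries. By Spearman's rank correlation 1 of the 5 genes stayed among the first 5. Among the members, r with SDC4 was 0.891 for AGRN, 0.882 for SDCBP, 0.819 for SDC3, 0.817 for GPC2, -0.148 for GPC1, -0.622 for GPC4 and -0.836 for SDC1. Spearman's correlation of the same genes in the same order was 0.733, 0.567, 0.533, 0.617, -0.1, -0.517 and -0.8.

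**Figure D4:**
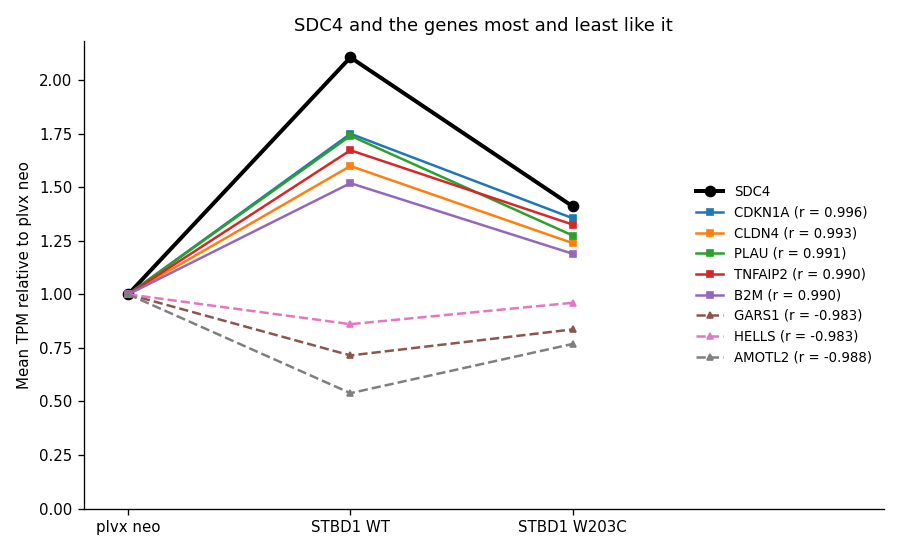
Mean TPM of each group divided by the plvx neo mean (vertical axis, from 0) for SDC4 (black), the 5 genes most like it (squares) and the 3 least like it (triangles, dashed), with Pearson's r over the 9 libraries; lines only join the values of a gene. SDC4 and the 5 genes peak in STBD1 WT and lie between the other groups in STBD1 W203C, and the 3 genes least like it show the reverse order.

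The genes that build, trim and use heparan sulfate were examined around the members, 161 in 8 lists. Of those tested, 33 rose and 12 fell among 123 in STBD1 WT vs plvx neo. In STBD1 W203C vs STBD1 WT 8 rose and 35 fell among 122, and in STBD1 W203C vs plvx neo 9 rose and 12 fell among 122. These are 36.6%, 35.2% and 17.2% against the 27.8%, 27.9% and 5.70% of all genes. The lists were chosen with earlier results of these libraries known, so the shares are given as a description. Their median log2 fold changes were 0.06, -0.09 and -0.01. Values in parentheses are log2 fold changes, with adjusted p-values from edgeR over all genes, and limma-trend on log2(TPM + 1) called 19, 11 and 2 of these genes in the 3 comparisons. Of the calls named below, limma kept those of HSPG2, MMP7, MMP14, NOTUM, NRP1, SYNPO, EZR, CXCL8 and FGFBP1 in STBD1 WT vs plvx neo. It kept those of MMP7, NOTUM, SYNPO, CCN2 and PDGFA between the constructs, and those of EZR and CXCL8 in STBD1 W203C vs plvx neo. The other named calls did not pass in limma.

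The polymerising enzymes of the chain were nearly flat. EXT1 and EXT2, which together extend the chain, measured 7.61 ± 0.271 and 35.5 ± 1.12 TPM in plvx neo, 7.82 ± 1.21 and 33.5 ± 0.692 in STBD1 WT, with 8.10 ± 1.69 and 35.3 ± 0.667 in STBD1 W203C (SD, n = 3), and did not pass in any comparison. Of the 4 polymerisation genes tested, EXTL3, which starts the chain, passed in STBD1 WT vs plvx neo (log2 fold change 0.11, adjusted p = 0.0441), a call that DESeq2 and the GC content and length offsets did not make and that was lost at 0.10 to 0.11 without STBD1 WT replicate 2 or 3 or plvx neo replicate 2 or 3. In STBD1 W203C vs STBD1 WT edgeR called 0 of the 4, with 0 at an unadjusted p below 0.05 and 0 by DESeq2 or limma. In STBD1 W203C vs plvx neo edgeR also called 0, with 1 at an unadjusted p below 0.05 and 0 by DESeq2 or limma.

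Of the 10 genes for the linker and the sugar precursors, 1 rose and 1 fell in each comparison. FAM20B, the kinase that phosphorylates the linker xylose, fell in both construct lines against plvx neo (-0.29, adjusted p = 0.00037, and -0.19, adjusted p = 0.0295). DESeq2 did not make the second call, which was also lost without any STBD1 W203C library or plvx neo replicate 1 or 2. In TPM the FAM20B libraries overlapped, at 14.1 to 14.9 in plvx neo, 10.55 to 15.54 in STBD1 WT and 11.5 to 14.6 in STBD1 W203C. UGDH, which makes UDP-glucuronic acid, rose in STBD1 W203C against STBD1 WT (0.22, adjusted p = 0.00347) and against plvx neo (0.19, adjusted p = 0.0389). DESeq2 did not make the second call, which was also lost without STBD1 W203C replicate 1 or 2 or plvx neo replicate 1 or 3. In TPM the UGDH libraries overlapped between all groups. Among 13 sulfation and epimerisation genes, 2 rose and 2 fell in STBD1 WT vs plvx neo, and 3 rose in STBD1 W203C vs STBD1 WT. HS6ST2, a 6-O-sulfotransferase, fell from 14.1 ± 0.954 TPM in plvx neo to 11.9 ± 1.36 in STBD1 WT (-0.32, adjusted p = 0.00139) and measured 15.3 ± 1.29 in STBD1 W203C (0.39 against STBD1 WT, adjusted p = 0.000175). HS6ST1 did likewise with smaller values (-0.14, adjusted p = 0.0344, and 0.18, adjusted p = 0.00516), the first of which DESeq2 did not call and which was lost without STBD1 WT replicate 2 or 3 or plvx neo replicate 1 (-0.12, -0.13 and -0.10). NDST1, the N-sulfating enzyme, rose in STBD1 W203C against STBD1 WT (0.19, adjusted p = 0.00353) and against plvx neo (0.20, adjusted p = 0.0132). The second call was lost without STBD1 W203C replicate 1 or 2 or plvx neo replicate 3. The NDST1 TPM of STBD1 W203C (11.7 to 14.5) overlapped that of STBD1 WT (10.4 to 12.6). HS2ST1, the 2-O-sulfotransferase, passed in no comparison.

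Genes that shed or edit syndecans and glypicans changed, where they passed, in the direction of SDC4 in the first pair of comparisons. Of 10 tested, 5 rose in STBD1 WT vs plvx neo and 4 fell in STBD1 W203C vs STBD1 WT. Both comparisons share the STBD1 WT libraries, and the lean was not particular to this list. Among the other proteoglycans 5 rose and 1 fell in the first and 7 fell in the second. MMP7 (matrilysin), which cleaves SDC1 from epithelial cells, rose from 0.570 ± 0.243 to 2.46 ± 0.135 TPM between plvx neo and STBD1 WT (2.09, adjusted p = 0.000167) and measured 1.29 ± 0.141 in STBD1 W203C (-0.95 against STBD1 WT, adjusted p = 0.0171). The second of these was not called by DESeq2 and was lost without STBD1 W203C replicate 2 (-0.86) or without STBD1 WT replicate 1 or 2 (-0.90 and -0.94). MMP14, a membrane-anchored matrix metalloproteinase, rose in both construct lines over plvx neo (0.59, adjusted p = 5e-06, and 0.34, adjusted p = 0.00957). Its fall in STBD1 W203C vs STBD1 WT (-0.25, adjusted p = 0.0161) was not called by DESeq2 (-0.24), with the offsets (-0.19) or in limma (-0.04). That call was also lost without STBD1 W203C replicate 1 or 2 or STBD1 WT replicate 3 (-0.22, -0.22 and -0.20). NOTUM, a secreted esterase that inactivates Wnt proteins held by glypicans, rose in STBD1 WT (0.43, adjusted p = 0.00305, lost at 0.28 with the offsets and the replicate block) and was lower in STBD1 W203C than in STBD1 WT (-0.70, adjusted p = 8.97e-05). SULF2, which removes 6-O-sulfates outside the cell, rose in STBD1 WT vs plvx neo (0.36, adjusted p = 0.00263). ADAM10, a sheddase, moved by 0.16 (adjusted p = 0.00872) and -0.17 (adjusted p = 0.00666) in the first pair of comparisons, the first lost without plvx neo replicate 3 (0.14), and ADAM17, another, was even at 13.1 to 13.3 TPM in the group means.

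**Figure D5:**
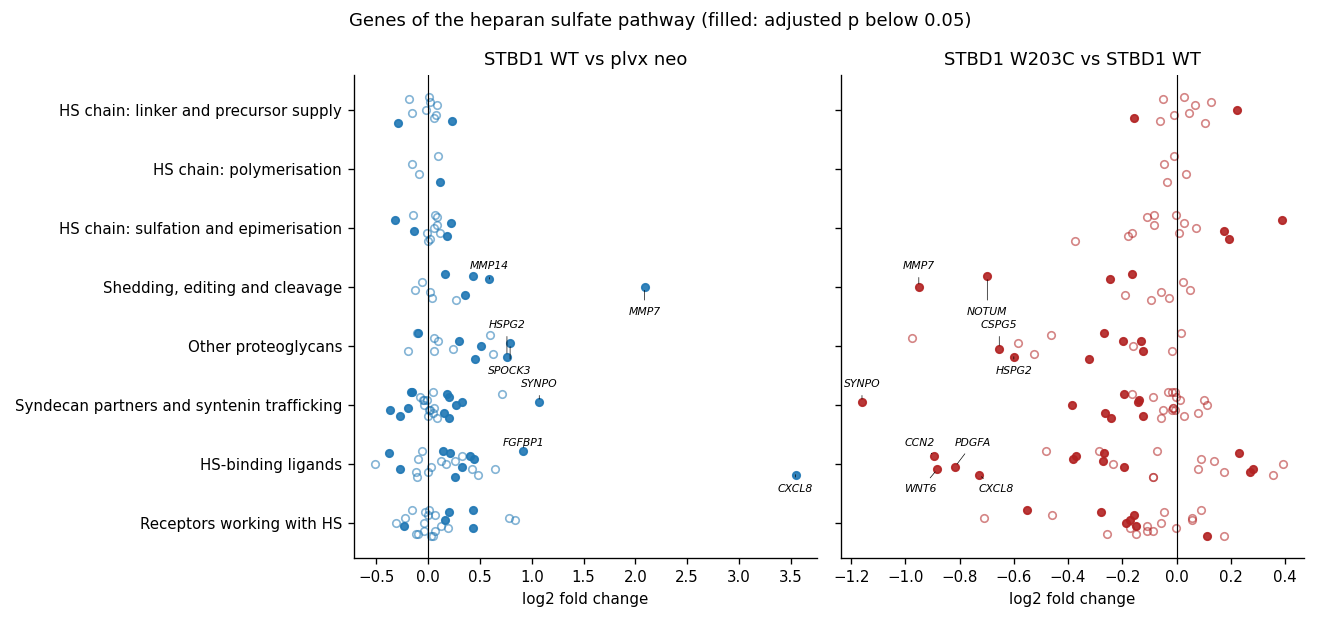
Log2 fold change (horizontal axis) of each tested gene of the 8 lists around heparan sulfate (HS) in STBD1 WT vs plvx neo (left) and STBD1 W203C vs STBD1 WT (right); filled circles passed the edgeR test over all genes, and called genes with changes beyond about 0.6 are named. In the shedding list all 5 called genes lie right of 0 on the left and all 4 lie left of 0 on the right, while the chain-building lists stay close to 0. Both panels share the STBD1 WT libraries.

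Other proteoglycans included 14 tested genes, of which 5 rose and 1 fell in STBD1 WT vs plvx neo and 7 fell in STBD1 W203C vs STBD1 WT. HSPG2 (perlecan), like agrin a basement membrane proteoglycan, rose from 7.07 ± 1.38 to 11.5 ± 0.977 TPM (0.76, adjusted p = 7.58e-10) and was 7.79 ± 1.60 in STBD1 W203C (-0.60 against STBD1 WT, adjusted p = 1.88e-07). NRP1 (neuropilin 1, a co-receptor that can carry a chain) rose in STBD1 WT vs plvx neo (0.51, adjusted p = 0.000436), and CSPG5, a chondroitin sulfate proteoglycan, fell in STBD1 W203C vs STBD1 WT (-0.65, adjusted p = 0.00216).

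Among the partners of SDC4 and SDCBP, 7 of 25 rose and 5 fell in STBD1 WT vs plvx neo, 8 fell in STBD1 W203C vs STBD1 WT, and 5 fell in STBD1 W203C vs plvx neo. SYNPO (synaptopodin, an actin-associated protein) rose from 2.41 ± 0.293 to 5.05 ± 0.115 TPM (1.07, adjusted p = 7.44e-09) and was 2.30 ± 0.50 in STBD1 W203C (-1.16 against STBD1 WT, adjusted p = 5.92e-08). PRKCA, the kinase that SDC4 activates, fell slightly in both construct lines against plvx neo (-0.19, adjusted p = 0.0133, and -0.21, adjusted p = 0.0496). The first was lost at -0.16 without STBD1 WT replicate 1. DESeq2 and RLE size factors did not make the second call, which was also lost without STBD1 W203C replicate 2 or 3 or any plvx neo library. Between the constructs PRKCA differed by -0.01 and was not called. EZR (ezrin, which links membrane proteins to actin) fell in both construct lines against plvx neo (-0.28, adjusted p = 5.75e-06, and -0.40, adjusted p = 1.39e-08), as did the integrin subunit ITGB5 (-0.36, adjusted p = 2.27e-05, and -0.39, adjusted p = 6e-05). In TPM the ITGB5 libraries overlapped, at 44.8 to 54.6 in plvx neo, 39.6 to 49.2 in STBD1 WT, with 40.4 to 47.7 in STBD1 W203C, and limma gave -0.14 and -0.18, neither called. ITGAV, another integrin subunit, rose in STBD1 WT vs plvx neo (0.32, adjusted p = 0.000203). FN1, the fibronectin that SDC4 binds, fell in STBD1 W203C vs STBD1 WT (-0.38, adjusted p = 0.000597). It rose in STBD1 WT vs plvx neo (0.27, adjusted p = 0.00781), a call lost without plvx neo replicate 3 (0.20). The FN1 TPM overlapped in that comparison (5.25 to 7.74 in plvx neo against 6.70 to 7.10). FN1 was not called in STBD1 W203C vs plvx neo (-0.12).

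Of 24 ligands that bind heparan sulfate, 8 rose and 2 fell in STBD1 WT vs plvx neo, and 3 rose and 9 fell in STBD1 W203C vs STBD1 WT. CXCL8, a neutrophil chemokine, rose from 1.38 ± 0.197 TPM in plvx neo to 13.7 ± 1.72 in STBD1 WT (3.55, adjusted p = 3.68e-13) and 8.34 ± 1.03 in STBD1 W203C (2.81, adjusted p = 6.56e-11), the order of groups seen for SDC4. FGFBP1, which releases fibroblast growth factors from the matrix, rose in both (0.92, adjusted p = 0.000174, and 0.63, adjusted p = 0.011, the second lost without STBD1 W203C replicate 1, at 0.46, or plvx neo replicate 3, at 0.63). LAMA5, a laminin chain, rose in STBD1 WT vs plvx neo (0.44, adjusted p = 8.61e-08), but its TPM overlapped (59.1 to 84.3 in plvx neo against 80.1 to 89.2) and limma gave 0.29, not called. In STBD1 W203C the LAMA5 libraries read 69.7 to 76.2 TPM, below those of STBD1 WT. CCN2 and PDGFA, both secreted growth regulators, fell in STBD1 W203C vs STBD1 WT (-0.89, adjusted p = 0.00025, and -0.82, adjusted p = 1.72e-05). Among the receptors that work with heparan sulfate, 4 of 23 rose and 1 fell in STBD1 WT vs plvx neo, and 1 of 22 rose and 6 fell in STBD1 W203C vs STBD1 WT. LRP1, a large endocytic receptor, rose in STBD1 WT vs plvx neo (0.43, adjusted p = 0.00133) and was lower in STBD1 W203C than in STBD1 WT (-0.55, adjusted p = 1.02e-05). Its mean TPM was 2.35 ± 0.136, 2.72 ± 0.237 and 1.87 ± 0.20 in plvx neo, STBD1 WT and STBD1 W203C (SD, n = 3), and limma gave 0.15 and -0.37, neither called.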

How the data were processed

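RNA was extracted with TRIzol and made into libraries with the NEBNext Ultra kit. The authors aligned read pairs to hg38 with STAR 2.7.1a (Ensembl release 93) and deposited RSEM 1.3.1 gene tables of expected counts and TPM. The length column of the deposited tables was used for transcript lengths. Strand setting was not stated, so overlapping genes are uncertain. Symbols matched 57754 of 58395 gene identifiers. Groups came from the sample titles.

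Expected counts were rounded. Each comparison fitted its 6 libraries alone: filterByExpr, TMM, and the edgeR 4.0.16 quasi-likelihood test (two-sided, R 4.3.3), adjusted by Benjamini-Hochberg over all genes tested, threshold 0.05. TPM levels are per length and fold changes are on the count scale. Alternatives used DESeq2 1.42.0, limma 3.58.1 on log2(TPM + 1), RLE size factors, no filter on low counts, all 9 libraries, a replicate block, GC content and length offsets (GC known for 99.4% of genes tested) and leaving out each library. A pseudocount of 0.1 in place of 1 was tried for log2 TPM differences of the members, without a test. Members, lists and naming rule were chosen with earlier results of these libraries known. The genes named were all members, and per list and comparison up to 3 rises and 3 falls, the largest among changed genes with at least 1 CPM (counts per M) and no overlap between groups, or all where 5 or fewer passed, plus EXT1, EXT2, NDST1, HS2ST1, HS6ST1, SULF2, ADAM17, PRKCA, GPC3, GPC5 and HSPG2. Some of these are given by count alone. The edgeR test was tried on counts simulated from the STBD1 WT and plvx neo libraries.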

Additional observations from a re-analysis of the deposited data

How the results depend on the processing

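SDC4 passed the threshold in all 3 comparisons under all 8 alternative settings and without any 1 library, and no called member changed direction. The members were chosen by results of these same libraries, so this describes dependence on the setting and is no test of them. In limma-trend on log2(TPM + 1) fewer genes passed. In STBD1 WT vs plvx neo it called 1751 genes (4254 in edgeR), 3 members and 19 pathway genes. In STBD1 W203C vs STBD1 WT it called 1828 genes (4202 in edgeR), 3 members and 11 pathway genes, and 68.8% of the called genes were higher against 51.8% in edgeR. For STBD1 W203C vs plvx neo it called 131 genes (859 in edgeR) and 2 pathway genes, and 74.0% were higher against 53.2%. The cause was not tested. Leaving out 1 library at a time gave 459 to 818 genes and 11 to 21 pathway genes in STBD1 W203C vs plvx neo, with 501 and 12 without STBD1 W203C replicate 1, 543 and 11 without STBD1 W203C replicate 2, and 459 and 13 without plvx neo replicate 3. Without STBD1 WT replicate 2 the SDC3 difference between the constructs, at -0.14, no longer passed. Same-numbered replicates showed little shared deviation (r from -0.0203 to 0.0603), and no pairing by number was assumed. With the replicate block 4400, 3662 and 1003 genes and 6, 6 and 1 members passed in the order above, against 4254, 4202 and 859 genes without it. Ranking by Spearman's correlation kept 1 of the 5 genes most like SDC4.

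Among pathway genes, THBS1 in STBD1 W203C vs STBD1 WT turned from 0.27 to -0.11 in limma-trend on log2(TPM + 1). The other reversals were of uncalled genes near 0. For STBD1 WT vs plvx neo they were ADAM17 (-0.0057 to 0.041 without 1 library), GPC3 (-0.12 to 0.26 without 1 library, -0.046 in limma), HS2ST1 (-0.056 to 0.067 without 1 library, 0.043 with GC content and length offsets and 0.043 with these and the replicate block) and NDST1 (-0.0094 to 0.034 without 1 library, -0.10 and -0.10 with the offsets). Between the constructs they were EXT1 (-0.065 to 0.044 without 1 library, 0.035 in limma), PRKCA (-0.079 to 0.047, 0.012 in limma) and HS2ST1 (-0.014 to 0.052, with -0.042 and -0.043 under the offsets). For STBD1 W203C vs plvx neo they were ADAM17 (0.011 in limma) and HS2ST1 (-0.047 to 0.073 without 1 library, 0.034 in limma, 0.0019 in DESeq2, 0.0019 and 0.0024 with the offsets, and 0.00043 with the replicate block).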
